A study of Mus musculus with 8 samples.

Results

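Of 9 genes known for their expression in upper layer projection neurons of the cerebral cortex, 8 were read on the arrays, by 16 probes among 25697. Membership followed the gene symbol in the platform annotation. The 8 genes were Cux1 with 5 probes, Cux2 and Mef2c with 3 probes each, and Pou3f1, Pou3f3, Lhx2, Mdga1 and Lmo4 with 1 probe each. No probe carried the symbol of the remaining gene, Pou3f2, which was not analysed here. Probes above background (detection p-value under 0.05) on 4 or more of the 8 arrays were kept for testing, and 14 of the 16 were kept, with at least 1 probe for each of the 8 genes.

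The samples were whole cerebral cortex of ERRγ-/- mice (ERRγ-null, 2 samples), set against whole cerebral cortex of wild-type mice (2 samples), all taken on postnatal day 0. Esrrg encodes ERRγ, a nuclear receptor with no known natural ligand that switches on genes of oxidative metabolism. The study set out to find transcripts whose level in newborn cortex depends on the receptor. Illumina bead arrays were run in pairs, a first and a b array of each sample, so that 8 arrays came from 4 samples. The sources used here do not say how the null allele was made, which strain and sex the mice had or whether a sample pooled animals. With 2 samples per genotype, the p-values set a difference against a spread between samples that was estimated mostly from all probes together. That spread covers these samples only and may in part be technical.

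Upper layer projection neurons are born late in the development of the cortex and connect neurons within and between the hemispheres, many of them through the corpus callosum. Their identity is set by homeodomain and POU-domain transcription factors. Cux1 and Cux2 encode homeodomain proteins that shape dendrites and synapses, and Pou3f2 and Pou3f3 encode POU factors that act together in the production and migration of upper layer neurons. On the day of birth many of these cells have only just reached their layer. Most of the 9 genes are also used by other cells of the cortex: Lhx2 by progenitors, Lmo4 by some deep layer neurons and Mef2c by interneurons and microglia. In whole cortex, fewer cells of a type and less RNA per cell cannot be told apart.

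The DNA near the start sites of these genes was searched for the sequence that estrogen-related receptors are known to bind, since the receptor is missing in the null mice. The search used the full element TCAAGGTCA and the core AAGGTCA that it contains, each on both strands. RefSeq windows of build GRCm38.p6, from 250 bases before to 50 bases after a transcript start, were available for 8 of the 9 genes, 14 windows in all, and Pou3f1 had none. The full element lay in 0 of the 14 windows and in 0.423% of the 32851 windows of all genes. The core lay in 1 of the 14 windows and in 4.72% of all windows. That window belongs to Mef2c, a gene with 3 start sites in the table, and covers chr13:83573357-83573656 on the plus strand. It is shown because it is the 1 window of these genes with a match, and the capitals mark the core, read on the opposite strand, which begins 72 bases before the start site. A match of letters is a description, and binding of ERRγ was not measured.
Mef2c: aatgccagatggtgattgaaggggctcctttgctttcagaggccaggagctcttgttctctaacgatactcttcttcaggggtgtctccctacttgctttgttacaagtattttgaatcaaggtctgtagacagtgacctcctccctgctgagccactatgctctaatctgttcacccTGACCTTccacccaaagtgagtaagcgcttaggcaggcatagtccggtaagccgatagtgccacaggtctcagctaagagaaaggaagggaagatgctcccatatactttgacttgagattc

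Mean intensity before normalization ran from 547 to 639 on the ERRγ-null arrays and from 390 to 565 on the wild-type arrays, with the lowest value on 1 array of wild-type sample 1. An ERRγ-null array had 11376 to 12013 probes above background, and a wild-type array 11022 to 11607. Of the 16 probes of the upper layer genes, 14 were above background on each ERRγ-null array, against 14 on the arrays of wild-type sample 2 and 13 on those of wild-type sample 1. All 8 genes were thus detectable in this tissue, although arrays of whole cortex cannot say in which cells they were made. The Esrrg transcript could not serve as a check of the genotype labels, as its probe read background only (0 of 8 arrays above background, detection p from 0.357 to 0.761). Levels below are log2 intensities after normalization. They are compared between samples for the same probe and never between probes.

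No upper layer gene passed the test of a difference between ERRγ-null and wild-type cortex. Of the 14 probes tested, 0 passed an adjusted p of 0.05 by limma, beside 0.00864% of all 11568 probes tested, which is 1 probe, of the X-linked gene Xlr4a. At an unadjusted p under 0.05 there were 0 of the 14, beside 7.07% of all probes. Adjusted p-values of the 14 ran from 0.811 to 0.999. The differences, ERRγ-null minus wild type, lay between -0.03 and 0.27 on the log2 scale, with standard errors (SE) from 0.158 to 0.211. The 95% confidence intervals of the 14 probes together reached from a fold of 0.750 to a fold of 1.59. A change within its own interval remains possible for each probe. The intervals are not adjusted for the number of probes, and their ends are not a limit of detection. Larger differences of other genes also did not pass, such as that of the deep layer gene Etv1 (-0.54, limma adjusted p = 0.551).

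**Figure D1:**
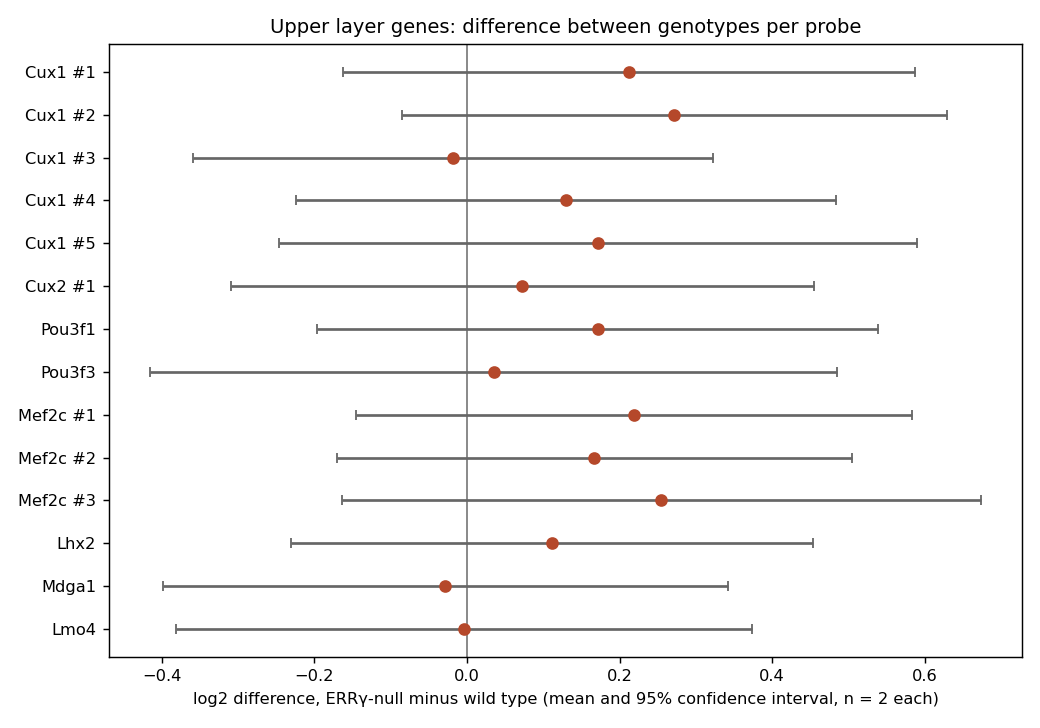
Log2 difference, ERRγ-null minus wild type, of the 14 tested probes with 95% confidence intervals (2 samples per genotype). Probes of a gene with several probes are numbered from the brightest. All 14 intervals include 0, and the values lie between -0.03 and 0.27.

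Cux1 encodes a CUT-class homeodomain protein and is a standard marker of upper layers. Its first probe, the 1 of the 5 annotated to the transcript NM_198602, lay at 10.38 and 9.96 in the ERRγ-null samples and at 9.94 and 9.97 in the wild-type samples. The first null sample stood above the other 3 samples, and the genotypes overlapped. The difference was 0.21 (SE 0.18, limma adjusted p = 0.892). It was 0.0018 when ERRγ-null sample 1 was left out and 0.42 when sample 2 was.

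The other 4 Cux1 probes were annotated to NM_009986. The second Cux1 probe lay at 7.85 and 7.56 in the ERRγ-null samples and at 7.48 and 7.38 in the wild-type samples. Both null samples were above both wild-type samples, and the first was again the highest. The difference was 0.27, a fold of 1.21 (SE 0.17, 95% confidence interval from -0.09 to 0.63, limma adjusted p = 0.811), which was the smallest adjusted p of the 14 probes. It was 0.12 when ERRγ-null sample 1 was left out and 0.42 when ERRγ-null sample 2 was. The third probe lay at 7.25 and 7.34 in ERRγ-null and at 7.26 and 7.37 in wild-type cortex, with a difference of -0.02. The fourth lay at 6.74 and 7.01 in ERRγ-null and at 6.72 and 6.77 in wild-type cortex, with a difference of 0.13. The fifth lay at 6.36 and 6.29 in ERRγ-null and at 5.84 and 6.47 in wild-type cortex, with a difference of 0.17. The genotypes overlapped for the third, the fourth and the fifth probe. For the last of these the spread lay in the wild-type samples, of which sample 1 was not above background on either array. The 5 probes of Cux1 thus gave differences from -0.02 to 0.27 for the same gene in the same RNA. The first was annotated to another transcript than the other 4. Which product of the gene each probe reads was not determined here.

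Some other probes had nearly the same pattern over the 4 samples as this second Cux1 probe. Closest to it, by the mean absolute difference of the 4 centred values, were Atn1 (0.0096), Cldn12 (0.012) and Jpt1 (0.015). Of the 11568 tested probes, those of Cux1 and those without a symbol were left out, and 1076 of the rest were closer to it than 0.1 on the log2 scale. That limit is wide beside its difference of 0.27, so that not all of these need share its pattern.

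Cux2, the paralog of Cux1 and a more selective upper layer marker, was measured by 1 of its 3 probes. That probe lay at 8.89 and 8.78 in the ERRγ-null samples and at 8.53 and 8.98 in the wild-type samples. Both null samples fell between the wild-type samples. The difference was 0.07 (SE 0.18, 95% confidence interval from -0.31 to 0.45, limma adjusted p = 0.984). The other 2 probes stayed at background on all 8 arrays and were not tested.

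Among the POU factors, Pou3f1 encodes a protein found in subsets of projection neurons. It lay at 11.60 and 11.98 in the ERRγ-null samples and at 11.61 and 11.63 in the wild-type samples. The second null sample was high and the other 3 samples lay close together. The difference was 0.17 (SE 0.17, limma adjusted p = 0.920), and -0.02 without ERRγ-null sample 2. Pou3f3 lay at 6.94 and 7.17 in the ERRγ-null samples and at 6.66 and 7.38 in the wild-type samples, so that the null samples again fell between the wild-type samples. Its difference was 0.04 (SE 0.21, limma adjusted p = 0.993), with the lowest bound of the 14 probes in its 95% confidence interval, which ran from -0.41 to 0.48.

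Mef2c encodes a MADS-box transcription factor that controls synapse number in response to activity. It was measured by 3 probes, all with higher means in ERRγ-null cortex and none past the test. The first probe lay at 12.51 and 12.66 in the ERRγ-null samples and at 12.21 and 12.53 in the wild-type samples. The first null sample and the second wild-type sample were close to each other, so that the genotypes overlapped. The second probe lay at 10.81 and 10.84 in the ERRγ-null samples and at 10.62 and 10.70 in the wild-type samples. Here the samples of each genotype lay close together and did not overlap. The third probe lay at 8.79 and 9.08 in the ERRγ-null samples and at 8.96 and 8.39 in the wild-type samples, with overlap.

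The differences of the 3 Mef2c probes were 0.22 (SE 0.17), 0.17 (SE 0.16) and 0.25 (SE 0.20), with limma adjusted p-values of 0.881, 0.913 and 0.873. As folds these are 1.16, 1.12 and 1.19. The second probe was the only 1 of the 14 whose difference exceeded the gap between the samples within each genotype. The share of all tested probes with such a difference is not given here, so this count cannot be read as particular to these genes. The samples that made the means differ were not the same for the 3 probes: the low value was wild-type sample 1 for the first probe and wild-type sample 2 for the third. Without wild-type sample 1 the first probe had a difference of 0.06, without wild-type sample 2 it had 0.38, and without ERRγ-null sample 2 it had 0.14. The third probe had 0.54 without wild-type sample 1 and -0.03 without wild-type sample 2. The second probe stayed between 0.13 and 0.21 whichever of the 4 samples was left out.

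Lhx2, which encodes a LIM-homeodomain factor of cortical progenitors and upper layer neurons, lay at 8.73 and 8.90 in the ERRγ-null samples and at 8.70 and 8.71 in the wild-type samples. The null samples lay just above the wild-type samples. The difference was 0.11 (SE 0.16, limma adjusted p = 0.954), and the 2 arrays of ERRγ-null sample 1 were 0.47 apart, more than that difference. Leaving out ERRγ-null sample 1 gave 0.19, and leaving out ERRγ-null sample 2 gave 0.03.

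Mdga1 encodes a membrane-anchored adhesion protein that takes part in the migration of upper layer neurons. It lay at 6.81 and 7.11 in the ERRγ-null samples and at 6.86 and 7.11 in the wild-type samples. Each genotype had a low and a high sample, and the difference was -0.03 (SE 0.17, 95% confidence interval from -0.40 to 0.34, limma adjusted p = 0.993).

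Lmo4 encodes a LIM-only adaptor that has no DNA-binding domain and acts through LDB proteins. It lay at 13.02 and 13.42 in the ERRγ-null samples and at 13.30 and 13.14 in the wild-type samples. The null samples were the lowest and the highest of the 4, with the wild-type samples between them. The difference was -0.0043 (SE 0.18, 95% confidence interval from -0.38 to 0.37, limma adjusted p = 0.999).

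**Figure D2:**
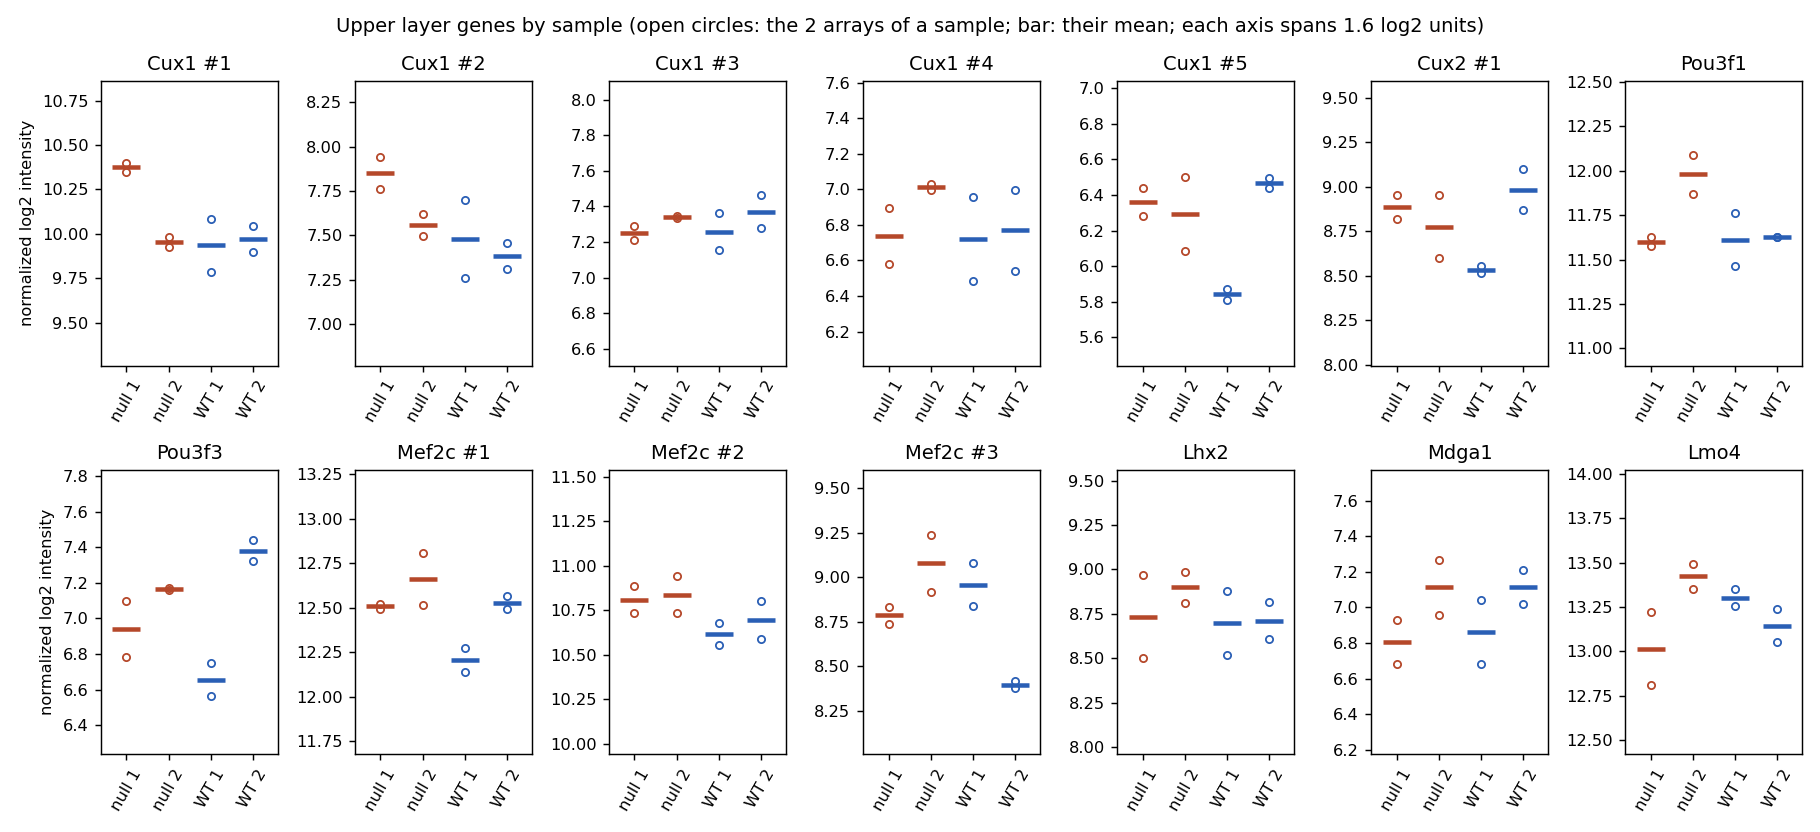
Normalized log2 intensity of the 14 tested probes in ERRγ-null samples 1 and 2 and wild-type samples 1 and 2. Open circles are the 2 arrays of a sample, bars are their mean, and every panel spans the same range of log2 units. For 13 of the 14 probes the difference between genotypes was smaller than the wider gap between the samples of 1 genotype. The share of all tested probes for which this holds is not given here.

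Taken over the 14 probes, 11 had a higher mean in ERRγ-null cortex and 3 a lower one, which is 78.6% higher, beside 51.2% of all probes tested. The median difference was 0.15, beside 0.0054 over all probes. Both null samples were above both wild-type samples for 3 of the 14, the second probes of Cux1 and Mef2c and the probe of Lhx2, which is 21.4% beside 18.1% of all probes. The reverse, both null samples lower than both of wild type, held for 0 of the 14, beside 17.0% of all probes. The count of 14 holds 5 probes of Cux1 and 3 of Mef2c, which are several readings of the same gene. With the brightest probe for each of the 8 genes, 6 were higher and 2 lower, with a median of 0.09. For Cux1 this was the first probe, annotated to another transcript than its other probes.

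The count of higher probes changed when single samples were left out. Measured as the median of the 14 centred values, the ERRγ-null samples stood at -0.02 and 0.13 and the wild-type samples at -0.10 and -0.04. Null sample 1 thus lay above both wild-type samples by a small margin and null sample 2 by a wider one, against a pooled SD of 0.084 between samples of 1 genotype. With 1 probe for each of the 8 genes the genotypes overlapped, at -0.06 and 0.14 in the ERRγ-null samples and -0.12 and 0.0021 in the wild-type samples, so that null sample 1 lay below wild-type sample 2. Without ERRγ-null sample 2, 8 of the 14 were higher with a median of 0.07. Without ERRγ-null sample 1, all 14 were higher with a median of 0.16. Without wild-type sample 1, 9 were higher with a median of 0.09, and without wild-type sample 2, 12 were higher with a median of 0.19.

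ERRγ-null sample 2 also stood apart in the 2 meningeal fibroblast markers that could be tested. Of 6 such genes on the arrays, these 2 were Dcn and Igf2, with a mean log2 level of 7.87 and 9.24 in the ERRγ-null samples and of 8.27 and 8.09 in the wild-type samples. Dcn lay at 5.40 and 7.12 in ERRγ-null and at 5.87 and 5.64 in wild-type cortex. It was above background on only 2 ERRγ-null and 2 wild-type arrays. Igf2 lay at 10.34 and 11.37 in ERRγ-null and at 10.66 and 10.55 in wild-type cortex, above background on all 8 arrays. Col1a1, Col1a2, Col3a1 and Lum, which mark the same cells, had no probe that could be tested. The part of these cells in the values of the upper layer genes was not tested. ERRγ-null sample 2 also had the highest centred median for the endothelial and pericyte, oligodendrocyte lineage and microglia markers given below. For the endothelial and pericyte markers the medians were -0.10 and 0.13 in the ERRγ-null samples and -0.05 and -0.06 in the wild-type samples. It was not the highest sample for the other lists given below.

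**Figure D3:**
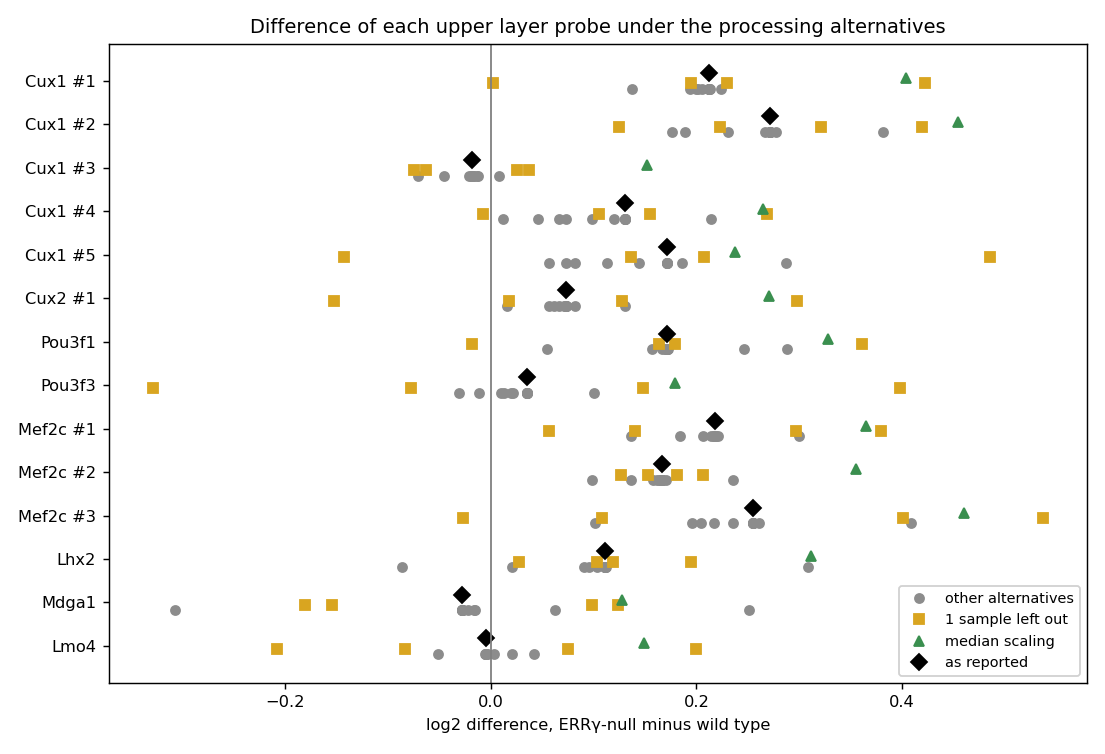
Log2 difference, ERRγ-null minus wild type, of each tested probe as reported and under the processing alternatives. Leaving out 1 sample moved the third Mef2c probe between -0.03 and 0.54 and Pou3f3 between -0.33 and 0.40, and median scaling put all 14 probes above 0.

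Related genes did not pass the test either. Of 20 other genes known for upper layer or callosal neurons, 13 could be tested, 7 were higher and 6 lower, and 0 passed the test in either direction, with 0 at an unadjusted p under 0.05 by limma. Their median difference was 0.03. Hspb3, a small heat shock protein gene known in callosal neurons, had the smallest p and a difference of 0.31 (limma adjusted p = 0.820), with values of 8.30 and 7.71 in ERRγ-null and 7.65 and 7.75 in wild-type cortex. The calcium-binding copine gene Cpne4 differed by -0.23 and the ephrin receptor gene Epha3 by -0.21. Both null samples lay below both wild-type samples for 3 of the 13, Cpne4, Epha3 and Btg1, beside 17.0% of all probes. They lay above for 0 of the 13, beside 18.1% of all probes. Rorb, a nuclear receptor gene of the granular layer, differed by -0.02.

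Of 14 relatives of the genes, 5 could be tested, of which 3 were higher, 2 lower and 0 past the test, with a median of 0.07 and 0 at an unadjusted p under 0.05 by limma. Satb1, a CUT-class homeobox gene, lay at 12.77 and 12.81 in the ERRγ-null samples and at 12.40 and 12.54 in the wild-type samples. That is a difference of 0.32 (SE 0.16, limma adjusted p = 0.739), without overlap. Of the 5 relatives tested, both null samples lay above both wild-type samples for 2 and below for 1, beside 18.1% and 17.0% of all probes. Lmo3 and Lmo2, both LIM-only genes like Lmo4, differed by -0.32 and -0.25 (limma adjusted p = 0.819 and 0.840).

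Of 14 genes for binding partners of the proteins, 11 could be tested, of which 6 were higher, 5 lower and 0 past the test, with a median of 0.01. By limma, 1 of these 11 had an unadjusted p under 0.05, beside 7.07% of all probes tested. This was Nlgn1, which encodes a neuroligin, the family of synaptic adhesion proteins that MDGA proteins bind. It lay at 6.83 and 7.10 in the ERRγ-null samples and at 6.54 and 6.51 in the wild-type samples (difference 0.44, SE 0.17, limma adjusted p = 0.600). Nlgn2, the neuroligin that MDGA1 is best known to bind, differed by 0.20 and Cited2, a transcriptional coregulator gene, by -0.27 (limma adjusted p = 0.882 and 0.824). Ldb1, through which LMO4 and LHX2 act, differed by -0.12.

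Deep layer projection neuron genes were the nearest group for comparison. Of 15, 14 could be tested, with 7 higher, 7 lower and 0 past the test, and a median of -0.03, beside the median of 0.09 for the 8 upper layer genes with 1 probe each. The difference between the groups was not tested. By sample, the deep layer genes stood at centred medians of -0.0043 and -0.03 in the ERRγ-null samples and 0.02 and -0.01 in the wild-type samples. The deep layer gene with the smallest p was Etv1, an ETS-family transcription factor gene, at 6.94 and 6.99 in the ERRγ-null samples and 7.47 and 7.55 in the wild-type samples (difference -0.54, SE 0.16, limma adjusted p = 0.551). It was the only 1 of the 14 with an unadjusted p under 0.05 by limma, beside 7.07% of all probes tested. Ldb2 was in this list and also in that of the binding partners. Otx1 differed by 0.32 and Sox5 by 0.24 (limma adjusted p = 0.739 and 0.833).

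Markers of the other cells of the cortex did not pass the test either. For progenitors, that is radial glia and intermediate progenitors, the median over 9 markers was -0.16, with 1 higher and 8 lower, of which Vim (-0.35) and Insm1 (-0.32) had the smallest p (limma adjusted p = 0.714 and 0.737). Markers of neurons in general had a median of 0.03, with 3 of 6 higher and 3 lower, interneuron markers 0.12, with 4 of 6 higher and 2 lower, and striatal markers 0.10, with 2 of 3 higher and 1 lower. Astrocyte markers had a median of 0.07 (5 of 6 higher), oligodendrocyte lineage markers 0.06 (3 of 5), microglia markers 0.13 (4 of 5), endothelial and pericyte markers 0.02 (3 of 6) and hippocampal and thalamic markers -0.11 (1 of 3). The markers in these lists with an unadjusted p under 0.05 by limma were the neuronal tubulin gene Tubb3 (0.50), the calretinin gene Calb2 (-0.45), the dopamine receptor gene Drd1 (0.48) and the oligodendrocyte precursor gene Gpr17 (0.67). Their limma adjusted p-values ran from 0.496 to 0.666. They were 1 of 6 neuron, 1 of 6 interneuron, 1 of 3 striatal and 1 of 5 oligodendrocyte lineage markers, beside 7.07% of all probes tested. Calb2 was also in the hippocampal and thalamic list. Tubb3 was above background on 3 ERRγ-null arrays but on only 1 wild-type array. It lay at 6.25 and 6.08 in ERRγ-null and at 5.40 and 5.92 in wild-type cortex, near background. Gpr17 was above background on 4 ERRγ-null and 3 wild-type arrays. Its values were 6.78 and 6.68 in ERRγ-null and 6.02 and 6.12 in wild-type cortex, the latter also near background.

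**Figure D4:**
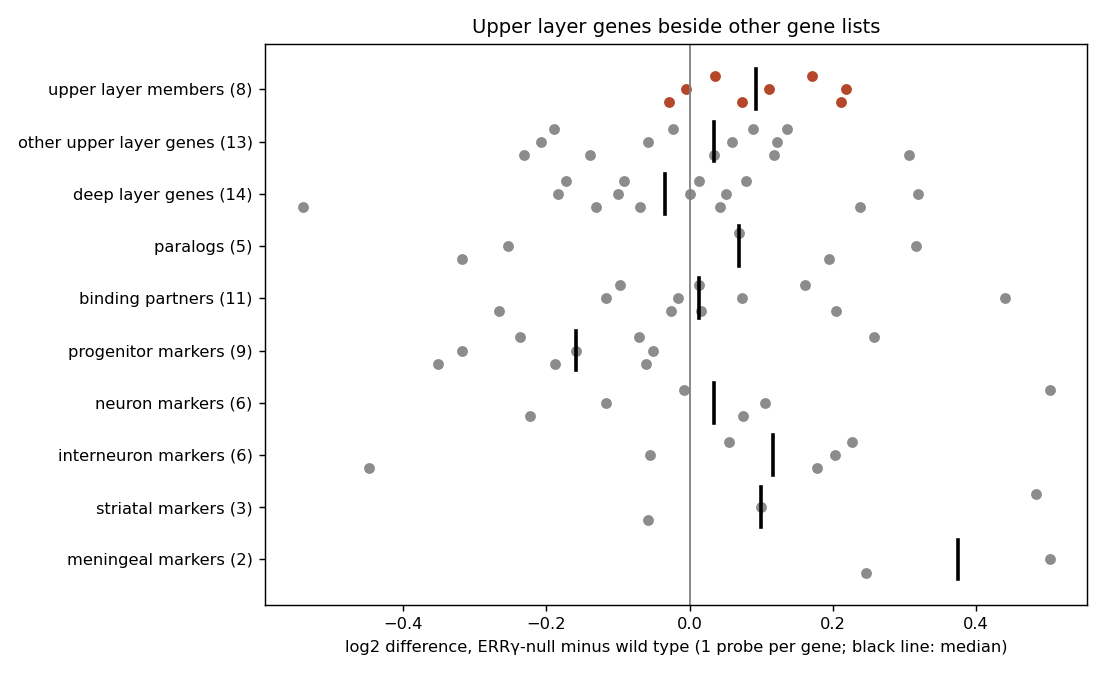
Log2 difference, ERRγ-null minus wild type, of the upper layer genes beside other gene lists, with 1 probe per gene, the number of genes tested in brackets and the median as a black line. The 8 upper layer genes lie between -0.03 and 0.22, within the range of the other lists together.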

How the data were processed

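The deposited table gave, per the file headers, a linear mean bead intensity for each probe on each array and a detection p-value that sets it against background. The submitters' processing notes name GenomeStudio, and no version, setting or genome build is given in the sources used here. Another deposited table held intensities that the authors had brought to 1 common distribution (column medians from 142.5 to 142.7, rank correlation of 1 with the unnormalized values). It was used as an alternative, and the method behind it is unknown.

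In R 4.3.3 with limma 3.58.1, neqc corrected the background through the detection p-values, with an offset of 16, then quantile normalized the arrays on the log2 scale. The 2 arrays of a sample were averaged, so that n is 2 per genotype. All 11568 kept probes were fitted with lmFit and eBayes (two-sided, 12.7 prior and 2 residual degrees of freedom), with Benjamini-Hochberg adjustment over all of them, and confidence intervals are at 95%. For gene lists, a gene was its brightest kept probe. Symbols came from the platform annotation, in which 23846 probes have 1 symbol and 1851 have none. Named were all probes of the upper layer genes, the 3 probes nearest in pattern and up to 3 genes with the smallest p from each list on layers, relatives and partners. Single further genes of these lists, chosen after their values were seen, were also named. From the lists of other cells, Vim and Insm1, the markers with an unadjusted p under 0.05 by limma and the meningeal markers were named. The genes, lists and tests were chosen with earlier results of these data known. The fit was tested on simulated data. Precision is limited by the number of arrays and samples. Alternatives covered background, normalization, filter, arrays, variance prior, replicate block, left-out samples, probe choice and threshold.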

Additional observations from a re-analysis of the deposited data

How the results depend on the processing

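In all alternatives run, 0 probes of the upper layer genes passed the threshold. Over all probes, 1 passed as reported, 5 with median scaling, 12 with the replicate number as a block, 0 without a filter, with probes above background on all 8 arrays, with the first or the b arrays alone, when the first array of wild-type sample 1 was left out and with robust variance estimation, and 0 to 1 without 1 sample. Same-numbered samples did not deviate together (correlation of -0.0052 over 11568 probes). Median scaling moved the median of all probes by 0.17 and that of the 14 probes to 0.29, or 0.12 relative to all probes, with all 14 higher. Of all probes at an unadjusted p under 0.05, 94.2% were then higher, against 50.5% as reported. Without 1 sample the median of the 14 ran from 0.07 to 0.19. The following probes, none past the threshold, changed sign. With median scaling these were the third Cux1 probe (0.15), Lmo4 (0.15) and Mdga1 (0.13), with cyclic loess Lmo4 (0.0035), with first arrays the third Cux1 probe (0.0086) and Pou3f3 (-0.031), with b arrays Lhx2 (-0.086), Lmo4 (0.042) and Mdga1 (0.25), and, leaving out that wild-type array, Lmo4 (0.021), Mdga1 (0.062) and Pou3f3 (-0.011). Without 1 sample, differences ran from -0.074 to 0.037 for the third, -0.0078 to 0.27 for the fourth and -0.14 to 0.49 for the fifth Cux1 probe, -0.15 to 0.30 for Cux2, -0.018 to 0.36 for Pou3f1, -0.33 to 0.40 for Pou3f3, -0.027 to 0.54 for the third Mef2c probe, -0.18 to 0.12 for Mdga1 and -0.21 to 0.20 for Lmo4. In these fits a lone sample is assumed to vary like the others. The cause of these changes was not tested.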
